A study of Mus musculus with 22 samples.

Results

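From the normalised counts of a mouse fibroblast experiment, 138 of 11208 genes were selected that were already read in starved cells, stood higher after 12 h of E2F1 induction and stayed under a set limit after serum. All differences below are between group means of log2(normalised count + 1), written as log2 differences, unless a count is named. The selection asked for a mean of at least 100 in the starved E2F1 line, a 12 h level at least 1.5 above that line's 0 h level, and levels after 2, 6 and 12 h of serum each less than 0.5 above the 0 h level of the control line. Of 11061 genes that met the start level, 582 met the 12 h rise. Of these, 138 stayed under the serum limit, and 444 passed it at one or more times, 289 of them at 12 h of serum only. The 12 h rise and the serum differences therefore chose these genes and are given as descriptions with no test. At the edges of the selection, Hyls1 and Scml2 stood 1.501 and 1.502 above their 0 h level, and Spef1 and H3f3a, at 1.494 and 1.49, were left out. Cbx2 and Tmpo, whose highest serum differences were 0.484 and 0.483, were kept, and Trim37 and Zfp382, at 0.505 and 0.528, were not. Crnde and Olfr1318 started at mean counts of 102.5 and 103.5, whereas 4930452B06Rik, at 92.0, and Gm10357, at 93.0, fell short of the start level.

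NIH/3T3 is an immortalised line of mouse embryo fibroblasts. Cells carrying a stably integrated, doxycycline-inducible E2F1 construct (the E2F1 line) were compared with cells carrying an empty vector (the EV line). All groups had been kept for 48 h in 0.25% serum, which puts fibroblasts into a resting state. The E2F1 line was read at 0 h and after 2, 6 and 12 h with 500 ng/ml doxycycline, and the EV line at 0 h, after the same times with doxycycline and after 2, 6 and 12 h with 10% serum, so that 11 groups of 2 libraries were available. The comparison asks which genes stand higher under E2F1 in resting cells while staying under the serum limit, which is set against 0 h of the EV line. Whether either line is a single clone, and whether the 2 libraries of a group came from separate cultures, is not given in the labels, so p-values measure only the spread between these libraries.

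E2F1 is a transcription factor that binds the promoters of genes for DNA replication and cell cycle entry, and the retinoblastoma protein, encoded by Rb1, holds it in check in resting cells. Genes for G2 phase and mitosis come up later in the cycle, and many of their promoters carry a cell cycle genes homology region (CHR), the element through which the DREAM complex keeps them low in resting cells and B-MYB and FOXM1 raise them in G2. Serum moves fibroblasts out of rest through growth factor signalling, cyclin D and its kinases CDK4 and CDK6, which release E2F factors from the retinoblastoma protein.

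The gene E2f1 itself had counts of 1703 and 1637 in starved E2F1 cells at 0 h, 1535 and 1755 at 2 h, 3806 and 3602 at 6 h and 2683 and 2845 at 12 h. In the EV line it stood at 1635 and 1655 at 0 h, 1345 and 1635 after 12 h of doxycycline and 4615 and 4247 after 12 h of serum. The 6 h and 12 h induced libraries were thus above both starved groups and the 2 h induced libraries were not, and whether reads of the construct count towards this gene is not given in the sources used here. Library totals lay between 34014608 and 46057140 normalised counts. Of 20 fibroblast markers 19 were in the table, with a summed count between 859800 and 908633 in the E2F1 line at 12 h and between 1365837 and 1388795 at 0 h, while none of 10 epithelial and none of 10 endothelial markers and of 10 immune markers only Csf1r were listed. The part of this lower marker sum in the results below was not tested, and in bulk RNA a smaller number of cells and less RNA per cell cannot be told apart. The 2 h libraries stood apart. Of 9 genes that stood at least 8-fold above the EV line in E2F1 cells at 0, 6 and 12 h, none of them a member, the median log2 level was 4.45 in the EV line at 0 h but 6.24 after 2 h of doxycycline and 7.24 after 2 h of serum, and in the E2F1 line it was 9.11 at 0 h and 8.34 at 2 h. Ddx3y, a Y chromosome gene among the 9, had counts of 9 and 4 in the EV line at 0 h, 103 and 71 after 2 h of doxycycline and 132 and 170 after 2 h of serum. It had 31 and 18 after 6 h of doxycycline and 48 and 35 after 6 h of serum, also above 0 h, while the median level of the 9 was 4.62 and 4.57 in those groups, near that of 0 h. Results that rest on 2 h libraries are named as such below. The comparison of the lines at 6 h uses none of them, and the part of the Ddx3y reads at 6 h in it was not tested.

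After 6 h of doxycycline, 126 of the 138 genes stood higher in E2F1 cells than in EV cells and none was lower, in groups that the selection did not use. The share called higher was 91.3%, against 33.0% of all 11208 genes, and 27.2% of all genes were lower (limma, Benjamini-Hochberg adjusted p under 0.05 over all genes). The median difference over the 138 genes was 1.31, against 0.01 over all genes, and the range ran from -0.60 in Olfr1318 to 3.65 in Psmb9 and Lrrc75a. Of the 444 genes that met the E2F1 limits and not the serum limit, 437 were higher, with a median of 1.89. At 0 h the lines differed by a median of 0.04 over the 138 genes and of 0.27 over the 39 with roles in mitosis described below. Of the 138, 9 stood more than 0.5 higher in the E2F1 line at 0 h and 7 more than 0.5 lower. Among the other 122, 114 were called higher at 6 h, with a median of 1.34. Quantile normalization moved the median of all genes from 0.01 to -0.14 and turned their split from 3695 higher and 3049 lower to 2964 and 4256, while 124 of the 138 genes were called higher and Itga9 was called lower (-0.36, adjusted p = 0.0493).

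The change from 2 h to 6 h in the E2F1 line less that in the EV line was above 0 at the same threshold in 87 of the 138 genes and below 0 in none, against 23.0% and 12.7% of all genes. Within the E2F1 line 90 of the genes rose from 2 h to 6 h and none fell, against 27.4% and 20.2% of all genes. At 2 h the lines differed in few of them, with 9 higher and 3 lower in the E2F1 line, against 4.25% and 3.24% of all genes. Under quantile normalization and equal totals the split over all genes turned to 2068 higher and 2525 lower and to 2184 and 2001 for the difference of changes, from 2573 and 1423, and to 2535 and 3459 and to 2486 and 3395 within the E2F1 line, from 3076 and 2264, with 85, 84, 90 and 87 of the 138 genes called. The 9 at 2 h were Cenpl, Mex3b, Cbx2, Lrrc75a, Lbr, Lzts3, Pard6g, Tmpo and Scrib, between 0.36 and 1.11, and the 3 lower were Itga9, Map2 and Glrb. Leaving out any 1 of the 4 libraries compared at 2 h gave 1 to 3 genes called higher, the fewest without E2F1 2 h replicate 2, and 1 called lower without E2F1 2 h replicate 1 or 2 or EV 2 h replicate 2. The 2 h to 6 h changes and the 2 h comparison rest on the 2 h libraries, and the part of those libraries in them was not tested.

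**Figure D1:**
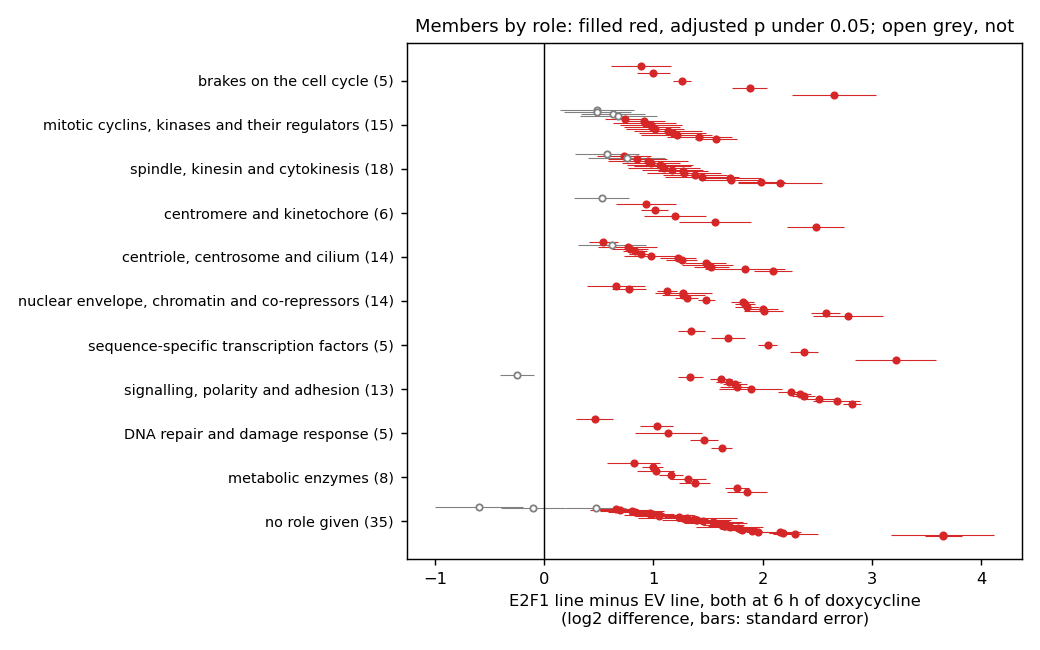
Difference between the lines after 6 h of doxycycline for each of the 138 genes (points, log2 difference with its standard error), grouped by role. Filled red points passed the adjusted p of 0.05 and open grey points did not; 126 points are filled, and the 14 genes of the nuclear envelope and chromatin group are all filled.

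The genes reached their 12 h level at different speeds. The share of the 12 h rise already present at 6 h was under 0.4 in 47 genes, between 0.4 and 0.8 in 42 and at least 0.8 in 49, bounds that were set after the values were seen. In 31 genes the 6 h level was above the 12 h level. Genes with roles in mitosis made up 34 of the 47 slow genes, 5 of the 42 in between and 0 of the 49 fast ones. The 99 genes with no mitotic role had a median rise of 1.47 at 6 h and 1.77 at 12 h, and the 39 mitotic genes one of 0.42 at 6 h and 1.98 at 12 h. At 2 h only Mex3b stood more than 1 above its 0 h level. The line comparison at 6 h uses the same E2F1 libraries as this grouping, so its counts by speed are given only as a description: all 49 fast genes and 37 of the 47 slow ones were called higher. Without EV 6 h replicate 1 it was 49 and 13, and without E2F1 6 h replicate 1 48 and 24. Roles were assigned to 103 of the 138 genes from general knowledge after the values were seen, so they describe the set and test nothing. Counts called higher at 6 h by role stand beside 91.3% of the 138 genes and 33.0% of all genes. Counts with a larger 2 h to 6 h change stand beside 63.0% and 23.0%. A role near the share of the 138 says nothing about that role.

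**Figure D2:**
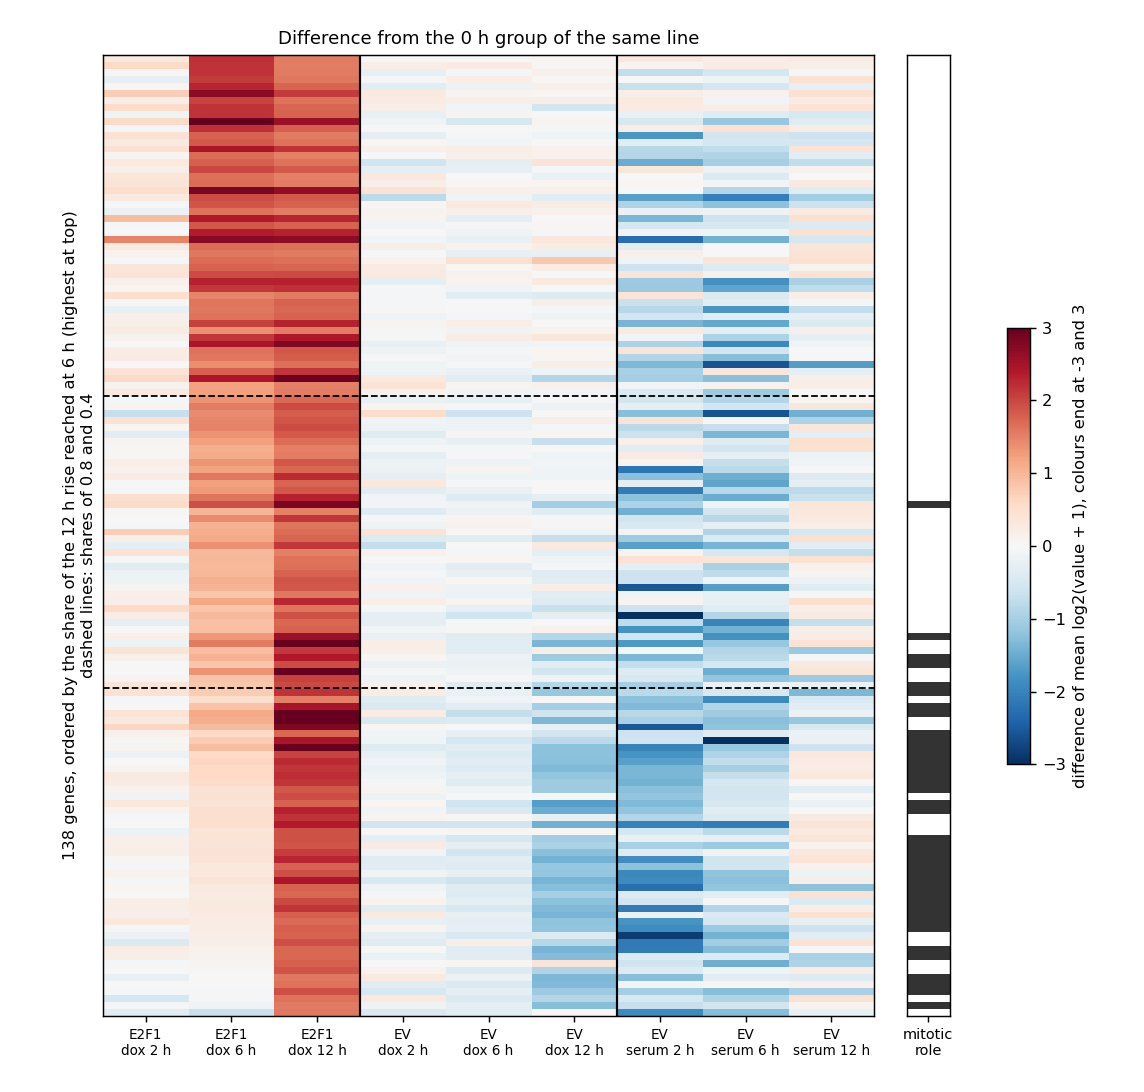
Difference of each of the 138 genes (rows) from the 0 h group of its own line in the 9 stimulated groups (columns), on the scale of mean log2(value + 1), ordered by the share of the 12 h rise reached at 6 h. The black marks at the right are the 39 genes with mitotic roles, which lie below the upper dashed line at a share of 0.8; the serum columns are mostly blue at 2 h and 6 h.

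**Figure D3:**
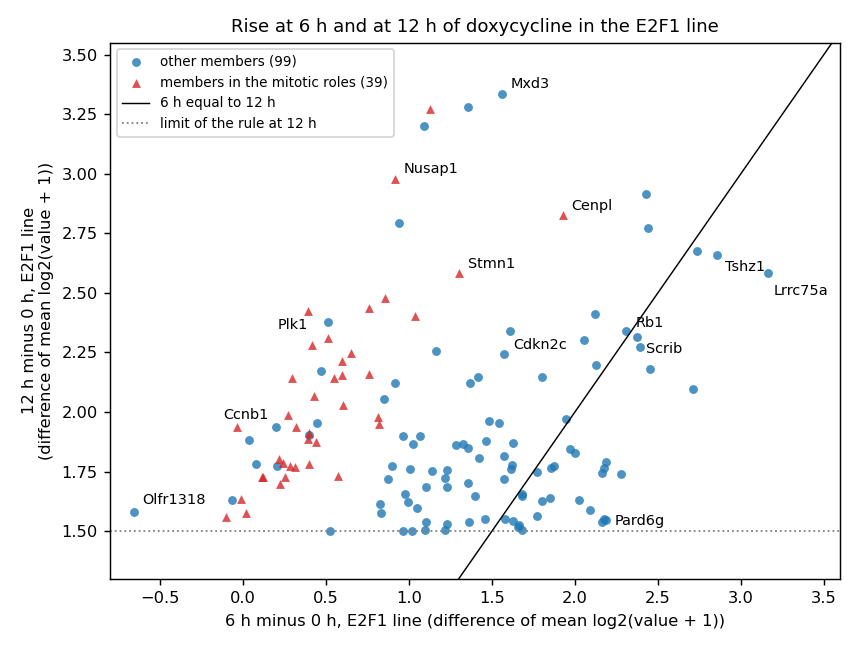
Rise over 0 h in the E2F1 line at 6 h (horizontal) and at 12 h (vertical), as differences of mean log2(value + 1), for the 39 mitotic genes (red triangles) and the other 99 (blue circles). The 31 genes to the right of the diagonal stood higher at 6 h than at 12 h, and no red triangle lies there.

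Promoter windows from RefSeq were on GRCm38.p6 and ran from 250 bases before to 50 after the annotated start. They were matched by symbol, or failing that by Ensembl ID, for 111 of the 138 genes. Numbers of windows below are numbers of genes: a gene with several windows was counted once, as holding a motif if any of them did. They were searched on both strands for an E2F motif (TTTCCCGC, TTTCGCGC, TTTGCCGC or TTTGGCGC), for the CHR (TTTGAA) and for the CCAAT box (CCAAT). The E2F motif was found in 7 windows, those of Cep128, Cenpl, Psmb9, Lzts3, Tmpo, Ipmk and Tut4, a share of 6.31% against 5.10% of 8609 windows of genes in the table, 13.5% of the 341 windows of the 444 genes over the serum limit and 2.60% of 27025 windows in all. The CHR was found in 36 windows, 32.4%, against 14.1% of the genes in the table and 20.2% of all windows. Of the 341 windows of the 444 genes over the serum limit, 27.6% held it. The CHR stood in 53.8% of 39 windows of slow genes and 13.5% of 37 windows of fast ones, and the E2F motif in 0 and 4 of them. Of the 35 windows of mitotic genes, 60% held the CHR, 80.0% a CCAAT box and 57.1% both, against 5.91% with both in the table. Of the 76 windows of members with no mitotic role, 19.7% held the CHR and 7.89% both. A list of 30 G2 and mitosis genes, members or not, had 24 windows, of which 75.0% held the CHR and 66.7% both. A match is a string of letters and not a bound site.

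The windows below show both kinds, with E2F and CHR matches in capitals on the strand of the gene. Cep128, Cenpl, Psmb9 and Lzts3 are those with an E2F match that had the largest 12 h rises, and Mxd3, which had the largest rise of all, held neither motif. Plk1 and Ccnb2 were picked after the counts were seen as mitotic genes with the CHR.
Cep128, chr12:91384360-91384659, minus strand: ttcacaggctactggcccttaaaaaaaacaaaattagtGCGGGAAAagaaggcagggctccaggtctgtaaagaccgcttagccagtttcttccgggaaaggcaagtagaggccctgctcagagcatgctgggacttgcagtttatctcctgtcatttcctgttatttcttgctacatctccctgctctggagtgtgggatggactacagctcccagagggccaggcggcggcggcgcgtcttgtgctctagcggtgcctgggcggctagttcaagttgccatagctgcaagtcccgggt
Cenpl, chr1:161070517-161070816, plus strand: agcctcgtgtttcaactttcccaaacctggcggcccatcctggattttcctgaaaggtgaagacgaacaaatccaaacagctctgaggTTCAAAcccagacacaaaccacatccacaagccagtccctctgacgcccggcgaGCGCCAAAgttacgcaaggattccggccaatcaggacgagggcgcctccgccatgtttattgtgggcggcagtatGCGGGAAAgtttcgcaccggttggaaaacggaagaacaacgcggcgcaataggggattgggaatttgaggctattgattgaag
Psmb9, chr17:34187281-34187580, minus strand: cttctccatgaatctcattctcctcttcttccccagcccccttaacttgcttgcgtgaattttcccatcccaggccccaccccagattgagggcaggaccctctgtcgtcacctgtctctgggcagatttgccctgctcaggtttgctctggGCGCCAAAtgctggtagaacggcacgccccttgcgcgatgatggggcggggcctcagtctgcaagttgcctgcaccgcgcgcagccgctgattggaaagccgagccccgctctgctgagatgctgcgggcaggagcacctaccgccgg
Lzts3, chr2:130642795-130643094, minus strand: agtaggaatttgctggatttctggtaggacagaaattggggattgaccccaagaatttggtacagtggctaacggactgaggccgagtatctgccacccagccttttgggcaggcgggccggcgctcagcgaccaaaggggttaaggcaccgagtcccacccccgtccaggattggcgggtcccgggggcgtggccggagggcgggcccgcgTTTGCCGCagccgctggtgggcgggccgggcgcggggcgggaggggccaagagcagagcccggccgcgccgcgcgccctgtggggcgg
Mxd3, chr13:55329682-55329981, minus strand: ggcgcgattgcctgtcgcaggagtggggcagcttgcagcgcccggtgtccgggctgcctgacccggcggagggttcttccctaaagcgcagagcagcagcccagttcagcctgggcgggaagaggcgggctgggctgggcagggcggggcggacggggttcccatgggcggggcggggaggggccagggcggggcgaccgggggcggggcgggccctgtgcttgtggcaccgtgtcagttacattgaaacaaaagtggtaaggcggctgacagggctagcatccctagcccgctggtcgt
Plk1, chr7:122159185-122159484, plus strand: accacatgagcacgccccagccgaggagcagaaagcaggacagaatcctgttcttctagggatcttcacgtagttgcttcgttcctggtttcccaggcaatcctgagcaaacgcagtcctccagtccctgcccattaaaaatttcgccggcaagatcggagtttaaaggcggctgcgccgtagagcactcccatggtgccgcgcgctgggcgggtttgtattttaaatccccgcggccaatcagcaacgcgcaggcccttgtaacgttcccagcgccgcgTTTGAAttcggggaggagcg
Ccnb2, chr9:70421505-70421804, minus strand: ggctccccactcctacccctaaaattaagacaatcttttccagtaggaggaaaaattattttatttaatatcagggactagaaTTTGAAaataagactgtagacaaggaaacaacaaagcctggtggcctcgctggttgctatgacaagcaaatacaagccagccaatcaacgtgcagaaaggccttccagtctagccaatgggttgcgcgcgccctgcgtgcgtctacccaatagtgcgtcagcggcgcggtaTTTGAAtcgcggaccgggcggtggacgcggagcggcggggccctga
Counted from the annotated start as base 1, the first capital lay 212 bases before it in Cep128, 98 before it in Psmb9 and 38 before it in Lzts3. Cenpl held the CHR 162 bases and E2F matches 108 and 33 bases before its start. In Plk1 the CHR began at base 31, and in Ccnb2 at base 5 and 167 bases before the start. Neither Plk1 nor Ccnb2 held the E2F motif in its window, and this says only that these letters were not there.

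Brakes on the cell cycle formed a small group of 5 genes, and all 5 were called higher in E2F1 cells at 6 h, 4 of them also with a larger 2 h to 6 h change. Rb1 encodes the retinoblastoma protein that restrains E2F1. Its counts in the E2F1 line were 514 and 478 at 0 h, 494 and 606 at 2 h, 2642 and 2296 at 6 h and 2867 and 2209 at 12 h. In the EV line they were 642 and 605 at 0 h, 629 and 710 after 6 h of doxycycline, 764 and 756 after 12 h, 265 and 318 after 2 h of serum, 152 and 205 after 6 h and 319 and 312 after 12 h. The induced libraries at 6 h and 12 h did not overlap any EV library, and all 6 serum libraries lay below both starved ones. The difference between the lines at 6 h was 1.88 ± 0.16 (SE, adjusted p = 1.33e-08), and the 2 h to 6 h changes differed by 1.80 ± 0.23 (adjusted p = 6.78e-06). Rb1 lies on chromosome 14 (GRCm38, 73183673-73325822, minus strand), and exons of Lpar6 and Rcbtb2 overlap it.

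Cdkn2c encodes p18-INK4C, an inhibitor of CDK4 and CDK6. Its counts were 5456 and 5039 in starved E2F1 cells at 0 h, 6257 and 6076 at 2 h, 15715 and 15469 at 6 h and 23508 and 26174 at 12 h. The EV line held 6887 and 7380 at 0 h, 6350 and 6658 after 6 h of doxycycline, 2819 and 3159 after 2 h of serum, 2456 and 2748 after 6 h and 5039 and 5699 after 12 h. The lines differed by 1.26 ± 0.08 at 6 h (adjusted p = 6.50e-10). Cdkn2d, which encodes the related inhibitor p19-INK4D, was slower: 504 and 459 at 0 h, 700 and 815 at 2 h, 997 and 857 at 6 h and 3211 and 3470 at 12 h in the E2F1 line, against 433 and 574 in the EV line at 6 h. Its difference at 6 h was 0.89 ± 0.27 (adjusted p = 0.00942), and the call was lost without E2F1 6 h replicate 1 or EV 6 h replicate 1 (adjusted p = 0.069 and 0.0956). After 2 h of serum Cdkn2d had counts of 104 and 68 and after 6 h of 153 and 305, below the 431 and 576 of starved EV cells.

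Mxd3 and Mxi1 encode partners of MAX that oppose MYC at its target genes. Mxd3, on chromosome 13 (55325168-55329823, minus strand, with exons of Prelid1 overlapping), had the largest 12 h rise of all 138 genes, 3.34. Its counts in the E2F1 line were 480 and 508 at 0 h, 398 and 493 at 2 h, 1460 and 1456 at 6 h and 4547 and 5490 at 12 h. The EV line at 0 h held 171 and 486, and after 6 h of doxycycline 183 and 292. The lines differed by 2.65 ± 0.38 at 6 h (adjusted p = 1.04e-05). Mxi1 was higher in the E2F1 line at 6 h by 1.00 ± 0.15 (adjusted p = 1.32e-05). All 5 brake genes stood at least 1 below starved EV cells after 2 h and after 6 h of serum. Of the 6619 genes under the serum limit at all 3 times, 22.5% and 18.7% did so at those times.

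**Figure D4:**
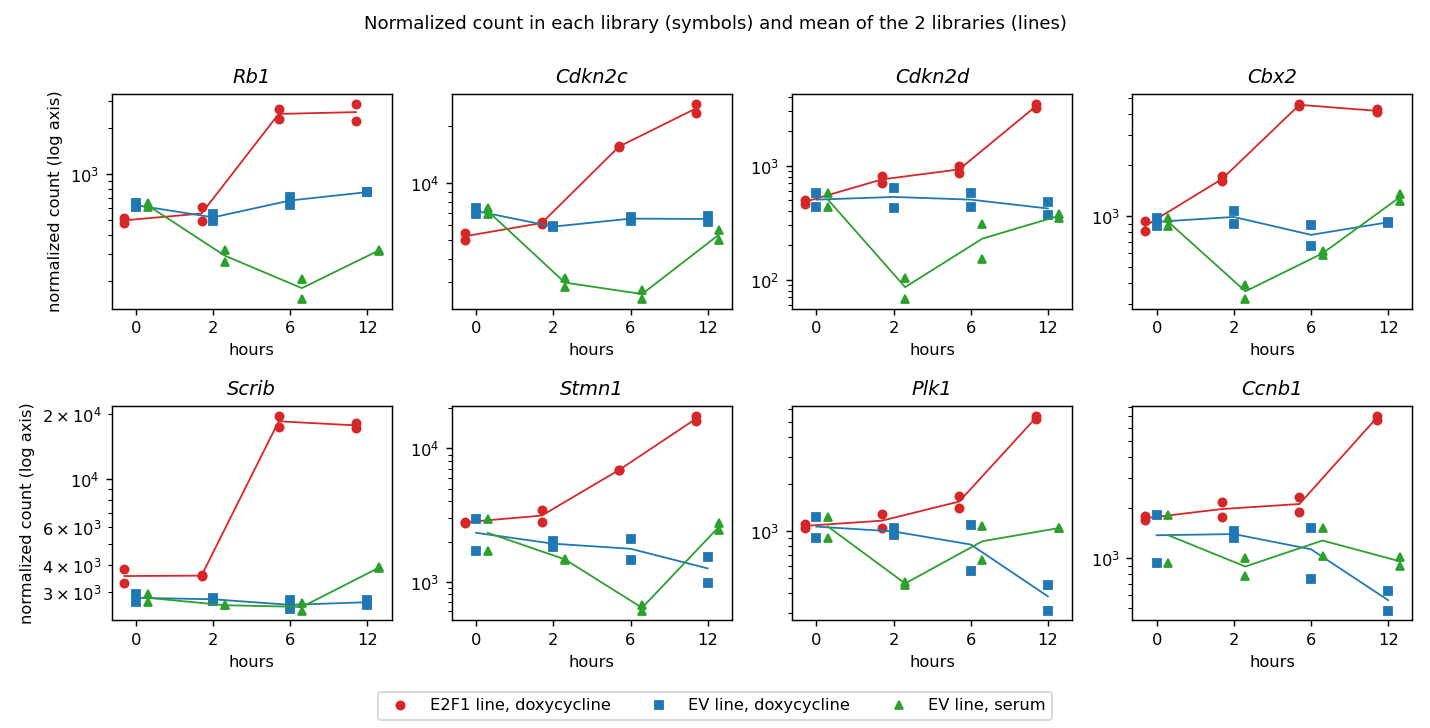
Normalised count (log axis, a separate range for each gene) over hours for 8 of the genes; symbols are libraries, lines join the means of 2 libraries. Rb1, Cbx2 and Scrib in the E2F1 line reach their 12 h level by 6 h, while Plk1, Ccnb1 and Cdkn2d reach it between 6 h and 12 h, and the serum libraries of Rb1, Cdkn2c and Cdkn2d lie lowest at 2 h or 6 h.

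Mitotic cyclins, kinases and their regulators numbered 15. At 6 h 11 of them were higher than in the EV line, with a group median of 0.97, and without EV 6 h replicate 1 it was 4. A larger 2 h to 6 h change was called in 1 of the 15, against 23.0% of all genes. Within the E2F1 line 0 of the 15 were called as rising from 2 h to 6 h, against 27.4% of all genes. Plk1 encodes Polo-like kinase 1, needed for entry into mitosis and for spindle assembly. Its counts in the E2F1 line were 1050 and 1109 at 0 h, 1053 and 1281 at 2 h, 1684 and 1407 at 6 h and 5243 and 5459 at 12 h. In the EV line they were 907 and 1231 at 0 h, 555 and 1087 after 6 h of doxycycline, 310 and 455 after 12 h, 471 and 454 after 2 h of serum and 1054 and 1042 after 12 h. Most of its rise over 0 h came after 6 h. The difference between the lines at 6 h was 0.99 ± 0.26 (adjusted p = 0.00288), and without EV 6 h replicate 1 it was 0.50 (adjusted p = 0.102). It lies on chromosome 7 (122159439-122169873, plus strand), and Gm44985 overlaps its exons.

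Ccnb1 and Ccnb2 encode the B-type cyclins that activate CDK1. Ccnb1 had counts of 1771 and 1686 at 0 h, 2309 and 1891 at 6 h and 6654 and 7048 at 12 h in the E2F1 line, and 935 and 1799 at 0 h and 751 and 1505 after 6 h of doxycycline in the EV line. The lines differed by 0.97 ± 0.28 at 6 h (adjusted p = 0.00642), a call lost without EV 6 h replicate 1 (0.47, adjusted p = 0.179) or E2F1 6 h replicate 1 (adjusted p = 0.0597). Ccnb2 stood at 532 and 446 at 0 h, 595 and 379 at 6 h and 1791 and 1952 at 12 h. Its difference of 0.48 ± 0.34 at 6 h did not pass (adjusted p = 0.229). With a replicate block within each line it was 0.83 (adjusted p = 0.0166). That setting compares the lines at fitted replicate 1 levels and not at group means, so it does not check the difference of 0.48. Each of these cyclin genes has a pseudogene copy in the annotation (Ccnb1-ps and Ccnb2-ps) that could share reads with it. The spindle checkpoint kinase gene Bub1b differed by 0.92 ± 0.29 and the mitotic kinase gene Aurka by 1.21 ± 0.33 (adjusted p = 0.0102 and 0.00383), and neither passed without EV 6 h replicate 1 (0.51 and 0.81, adjusted p = 0.19 and 0.0803), nor Bub1b without E2F1 6 h replicate 1 (adjusted p = 0.0777). Cdc25b, whose product activates CDK1, was the gene of this group with the largest difference, 1.57 ± 0.19 (adjusted p = 1.61e-06), and its exons overlap those of Spef1. Ube2c, Pimreg and Fam83d, with differences of 0.49, 0.68 and 0.63, did not pass, but Ube2c did without EV 6 h replicate 2 (0.96, adjusted p = 0.0202).

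Of 18 genes of the spindle, the kinesins and cytokinesis, 16 were higher in the E2F1 line at 6 h, and 8 without EV 6 h replicate 1. A larger 2 h to 6 h change was called in 3 of them, Stmn1, Arhgef39 and Ckap2, a share no higher than the 23.0% of all genes. Stmn1 encodes stathmin, which binds tubulin and destabilises microtubules. It had counts of 2757 and 2823 at 0 h, 2786 and 3475 at 2 h, 6889 and 6866 at 6 h and 15934 and 17548 at 12 h in the E2F1 line. The EV line held 1696 and 2951 at 0 h, 1449 and 2079 after 6 h of doxycycline, 1485 and 1451 after 2 h of serum, 605 and 666 after 6 h and 2742 and 2448 after 12 h. The lines differed by 1.99 ± 0.21 at 6 h (adjusted p = 2.95e-07). Nusap1, which encodes a microtubule protein of the spindle, went from 1227 and 1355 at 0 h to 2476 and 2389 at 6 h and 9833 and 10523 at 12 h, and differed by 1.44 ± 0.34 at 6 h (adjusted p = 0.00137); its exons overlap those of Oip5. Kif23 and Racgap1 encode the parts of centralspindlin, which builds the midzone of the dividing cell. Racgap1 had counts of 4308 and 4193 at 0 h, 7019 and 5865 at 6 h and 18613 and 19269 at 12 h, and the differences at 6 h were 1.27 ± 0.23 for Racgap1 and 1.28 ± 0.34 for Kif23 (adjusted p = 0.000104 and 0.00321), the latter lost without EV 6 h replicate 1 (0.76, adjusted p = 0.0887).

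Centromere and kinetochore genes numbered 6, and 5 of them were higher in the E2F1 line at 6 h. Cenpl, a subunit of the constitutive centromere network, was the fastest of the mitotic genes. Its counts were 318 and 256 at 0 h, 387 and 465 at 2 h, 1191 and 992 at 6 h and 1994 and 2068 at 12 h in the E2F1 line, and 162 and 264 at 0 h, 208 and 184 at 2 h and 193 and 194 at 6 h of doxycycline in the EV line. The E2F1 libraries lay above the EV libraries at each of these doxycycline times. The difference was 1.11 ± 0.26 at 2 h (adjusted p = 0.0153, and 0.0506 to 0.158 without any 1 of those 4 libraries) and 2.48 ± 0.26 at 6 h (adjusted p = 1.97e-07). Hjurp, the chaperone that loads the centromeric histone encoded by Cenpa, had counts of 5421 and 5521 at 0 h, 10471 and 8914 at 6 h and 21911 and 20390 at 12 h, and differed by 1.01 ± 0.12 at 6 h (adjusted p = 1.47e-06). Cenpa itself stood at 2583 and 2571 at 0 h, 3026 and 2575 at 6 h and 8495 and 8560 at 12 h, and its difference of 0.53 ± 0.25 at 6 h did not pass (adjusted p = 0.0783), and without EV 6 h replicate 2 it was 0.98 (adjusted p = 0.00332).

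The calls of mitotic genes at 6 h leaned on 1 library. Replicate 2 was above replicate 1 in all 39 of them in the EV line at 0 h, by a median of 0.82, and in all 39 after 6 h of EV doxycycline, by a median of 0.91, against medians of 0.01 and -0.01 over all genes. The same order held in 36 of the 39 after 12 h of EV doxycycline and in 38 after 6 h of serum, and in 8, 4 and 9 after 2 h of doxycycline, 2 h of serum and 12 h of serum. Without EV doxycycline 6 h replicate 1, 16 of the 39 were called higher at 6 h in place of 32, and without replicate 2, 38 were. The selection itself also leaned on this spread: without EV 0 h replicate 2, 23 of the 39 mitotic genes still met the serum limits, and 85 of the 99 others did. Without EV 0 h replicate 1, all 39 and 93 of the 99 did.

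The median line difference at 6 h over the 39 mitotic genes was 1.06. From their own 0 h levels, the E2F1 line had risen by a median of 0.42 and the EV line stood lower by a median of 0.35. At 0 h the E2F1 line already stood higher by a median of 0.27. A larger 2 h to 6 h change was called in 6 of the 39, and 7 rose in the E2F1 line, against 23.0% and 27.4% of all genes. These changes rest on the 2 h libraries. For these mitotic genes the starved EV cells at 0 h were not the lowest point. After 12 h of doxycycline the EV line stood below its 0 h level in all 39, by a median of 1.18, and by at least 1 in 31 of them. The fall was not particular to them. The same difference had a median of -1.29 over the list of 30 G2 and mitosis genes, members or not. It was -0.84 over 50 E2F target genes of S phase, -0.53 over the 444 genes over the serum limit and 0.002 over all genes. The selection used the EV 0 h libraries, so these values of members are a description. After 12 h of serum the median difference from 0 h was 0.02, so that 12 h of serum stood above 12 h of EV doxycycline by a median of 1.08, and by at least 1 in 23 of the 39. Plk1, for example, had 310 and 455 counts after 12 h of EV doxycycline and 1054 and 1042 after 12 h of serum. At the earlier times the serum groups mostly lay below the time-matched EV doxycycline groups, with medians of -1.12 at 2 h and -0.32 at 6 h, below 0 in 37 and 31 of the 39. Over the other 99 genes serum and EV doxycycline at 12 h differed by a median of 0.06. Over all 138 the median was 0.21, with 31 genes at least 1 higher in serum and 7 at least 1 lower. Among all 11208 genes, 1524 and 1232 were. Of 138 genes, 42 were lower and 7 higher from 6 h to 12 h of EV doxycycline at an unadjusted p under 0.05 (limma), against 944 and 393 of all 11208. At the adjusted threshold 0 of the 138 passed in either direction, against 0.0446% of all genes lower and 0.0% higher. Without EV 6 h replicate 1, 21 of the 138 were lower.

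**Figure D5:**
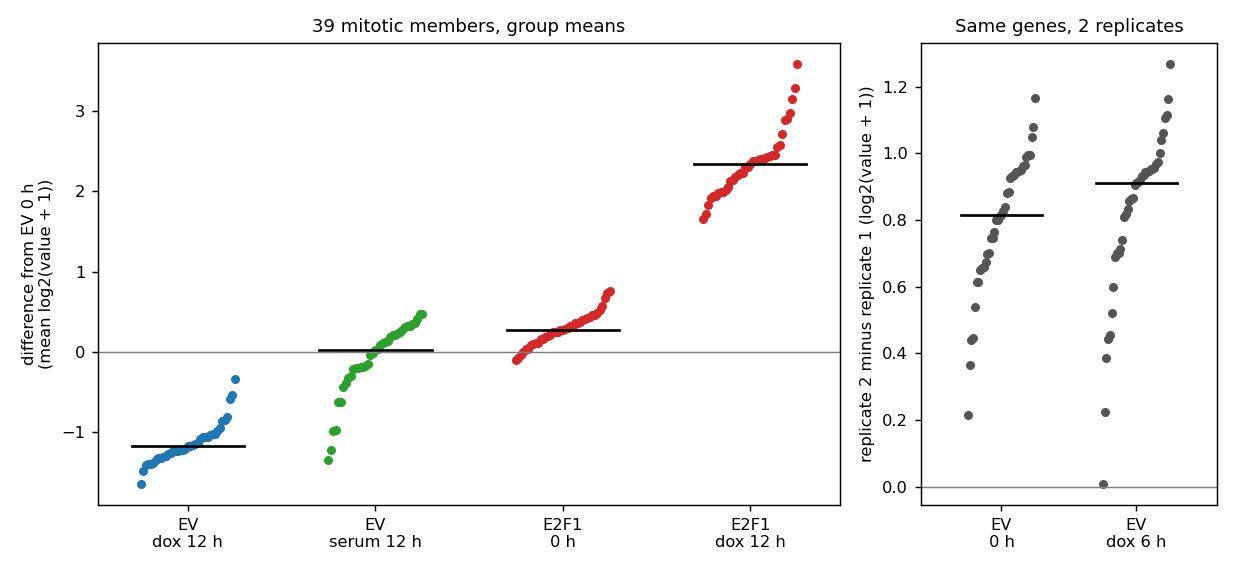
Left, the 39 mitotic genes as difference from the EV 0 h group mean (mean log2(value + 1)) in 4 groups, genes sorted within each group and the median as a bar; the medians for the EV line are -1.18 after 12 h of doxycycline and 0.02 after 12 h of serum. Right, replicate 2 minus replicate 1 for the same genes in 2 EV groups, above 0 in all 39 genes of each.

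Of 14 genes of the centriole, the centrosome and the cilium, 13 were higher in the E2F1 line at 6 h, with a median of 1.10, and 9 also had a larger 2 h to 6 h change. The shares over all 138 genes were 91.3% and 63.0%. Cep128, which encodes a protein of the mother centriole, had counts of 422 and 391 at 0 h, 340 and 493 at 2 h, 1141 and 951 at 6 h and 3892 and 4014 at 12 h in the E2F1 line. The EV line held 345 and 394 after 6 h of doxycycline and, in serum, 342 and 278 at 2 h, 118 and 179 at 6 h and 605 and 454 at 12 h. The lines differed by 1.5 ± 0.23 at 6 h (adjusted p = 2.31e-05). Rfx2 encodes a transcription factor of cilium genes and was faster. It went from 305 and 371 at 0 h to 1457 and 1343 at 6 h and 1699 and 1632 at 12 h, and the lines differed by 2.09 ± 0.18 at 6 h (adjusted p = 1.27e-08). Cep135 and Cenpj, which serve centriole assembly, differed by 1.53 ± 0.16 and 1.48 ± 0.19 (adjusted p = 2.41e-07 and 2.75e-06). Cdk5rap2, which encodes a scaffold of the material around the centrioles, was the 1 gene of the 138 that rose from 2 h to 6 h in the EV line given doxycycline, by 0.72 ± 0.11 (adjusted p = 0.00111). Its counts there were 6007 and 5912 at 0 h, 4147 and 3187 at 2 h and 5914 and 6044 at 6 h, so the 6 h level was that of 0 h and the 2 h libraries were the low ones. None fell there, against 2.65% of all genes higher and 3.81% lower.

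All 14 genes of the nuclear envelope, chromatin and co-repressors were higher in the E2F1 line at 6 h, with a median of 1.65, and 13 had a larger 2 h to 6 h change. Cbx2 encodes a chromobox subunit of Polycomb repressive complex 1. Its counts in the E2F1 line were 928 and 812 at 0 h, 1603 and 1713 at 2 h, 4612 and 4516 at 6 h and 4296 and 4110 at 12 h. The EV line held 978 and 866 at 0 h, 1073 and 898 at 2 h and 663 and 880 at 6 h of doxycycline, 322 and 391 after 2 h of serum and 1356 and 1223 after 12 h. The lines were already apart at 2 h, by 0.75 ± 0.13 (adjusted p = 0.00248, and 0.0502 without EV 2 h replicate 2), and by 2.58 ± 0.13 at 6 h (adjusted p = 2.25e-11). Cbx2 lies on chromosome 11 (119022962-119031270, plus strand). Pcgf5, another subunit gene of this family of complexes, differed by 1.84 ± 0.09 at 6 h (adjusted p = 1.46e-11).

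Hmgb3, which encodes a high mobility group protein, went from 495 and 546 at 0 h to 724 and 840 at 2 h, 2846 and 2753 at 6 h and 4015 and 3844 at 12 h in the E2F1 line, against 295 and 560 in the EV line at 6 h. Its difference at 6 h was 2.78 ± 0.32 (adjusted p = 8.01e-07), and a copy, Hmgb3-ps, could share its reads. Tmpo and Lbr encode proteins of the inner nuclear membrane that bind lamins and chromatin. Tmpo had 9089 and 8876 at 0 h, 20920 and 18633 at 6 h and 30519 and 30010 at 12 h, and 15238 and 13168 after 12 h of serum. At 6 h the difference was 1.3 ± 0.11 for Tmpo and 1.85 ± 0.11 for Lbr (adjusted p = 7.61e-09 and 1.44e-10). The co-repressor genes Tle4, Rcor2 and Gps2 stood higher at 6 h than at 12 h. Tle4 had counts of 583 and 521 at 0 h, 2703 and 2299 at 6 h and 1970 and 1787 at 12 h, and its lines differed by 2.00 ± 0.14 at 6 h (adjusted p = 9.65e-10).

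The 5 sequence-specific transcription factors all passed both at 6 h and in the 2 h to 6 h change. Tshz1, a zinc finger homeobox factor, had counts of 575 and 643 at 0 h, 958 and 804 at 2 h, 4777 and 4086 at 6 h and 4264 and 3471 at 12 h, against 792 and 910 in the EV line at 6 h, a difference of 2.38 ± 0.13 (adjusted p = 4.67e-11). Elf2, an ETS family factor, went from 1829 and 1843 at 0 h to 7538 and 7395 at 6 h and 5759 and 5606 at 12 h, and differed by 2.05 ± 0.09 (adjusted p = 3.09e-12). Nfia, a nuclear factor I gene, had a larger difference, 3.22 ± 0.37 (adjusted p = 6.73e-07), from 798 and 764 counts in the E2F1 line and 91 and 76 in the EV line at 6 h. Part of it was there before induction, since the lines held 279 and 303 against 116 and 144 at 0 h.

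Signalling, polarity and adhesion genes numbered 13. At 6 h 12 of them were higher in the E2F1 line, with a median of 1.89, and all 13 had a larger 2 h to 6 h change. Scrib encodes a scaffold protein of cell polarity. Its counts were 3835 and 3298 at 0 h, 3609 and 3554 at 2 h, 19587 and 17402 at 6 h and 18161 and 17250 at 12 h in the E2F1 line. All 14 EV libraries lay between 2468 and 3934. The lines differed by 2.82 ± 0.08 at 6 h (adjusted p = 7.66e-14), and the 2 h to 6 h changes by 2.45 ± 0.12 (adjusted p = 6.63e-10). Scrib lies on chromosome 15 (76047158-76069784, minus strand). Map3k1, a kinase that feeds into the JNK pathway, went from 216 and 270 at 0 h to 1718 and 1472 at 6 h and back to 1170 and 920 at 12 h, and differed by 2.68 ± 0.21 (adjusted p = 6.59e-09).

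The polarity gene Pard6g, the receptor gene Neo1 and the oxygen sensor gene Egln1 followed the same course. Pard6g had counts of 911 and 788 at 0 h, 4013 and 3718 at 6 h and 2473 and 2485 at 12 h, Neo1 2088 and 2125, 9826 and 8208, then 7052 and 5689, and Egln1 2409 and 2401, 11689 and 10271, then 8884 and 7772. Their differences at 6 h were 2.38 ± 0.11, 1.75 ± 0.11 and 2.34 ± 0.10. Itga9, an integrin subunit gene, was the exception at 6 h. It started lower in the E2F1 line, with 180 and 191 counts against 681 and 697 in the EV line at 0 h, and reached 588 and 450 at 6 h against 588 and 635. The lines differed there by -0.25 ± 0.16 (adjusted p = 0.182), whereas the 2 h to 6 h changes differed by 1.11 ± 0.22 (adjusted p = 0.000775). Map2 and Glrb, genes of neuronal microtubules and of the glycine receptor, also started lower, with 216 and 250 against 690 and 503 counts and 237 and 129 against 313 and 270.

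DNA repair and metabolism were each a small part of the set. All 5 repair and damage response genes were higher in the E2F1 line at 6 h, and 3 of them without EV 6 h replicate 1. Xrcc1, a scaffold of single-strand break repair, had counts of 1648 and 1645 at 0 h, 4823 and 4406 at 6 h and 6350 and 6470 at 12 h, and differed by 1.62 ± 0.09 (adjusted p = 1.07e-10). Ppm1d, a phosphatase that turns off the damage response, differed by 1.46 ± 0.13 (adjusted p = 2.62e-08). The 8 metabolic genes passed both at 6 h and in the 2 h to 6 h change, with a median of 1.24 at 6 h. Gltp, which encodes a glycolipid transfer protein, had the counts 1394 and 1430 at 0 h, 4129 and 4118 at 6 h and 5342 and 5622 at 12 h.

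Among the 35 genes given no role, 32 were higher in the E2F1 line at 6 h, near the 91.3% of all 138. Lrrc75a had counts of 230 and 240 at 0 h, 330 and 372 at 2 h, 2266 and 1975 at 6 h and 1354 and 1474 at 12 h, and its difference at 6 h, 3.65 ± 0.17 (adjusted p = 6.70e-12), shared the top place with Psmb9. Psmb9, a subunit gene of the immunoproteasome whose exons overlap those of Tap1, had 740 and 812 counts at 6 h against 53 and 70 in the EV line, a difference of 3.65 ± 0.47 (adjusted p = 2.95e-06). At 0 h it stood at 128 and 158 in the E2F1 line and 76 and 58 in the EV line. Mex3b, which encodes an RNA-binding protein, was the earliest, with 304 and 334 counts at 0 h, 913 and 846 at 2 h, 2055 and 2212 at 6 h and 2033 and 2050 at 12 h. At 2 h the lines differed by 0.89 ± 0.21 (adjusted p = 0.0154, and 0.0756 to 0.101 without any 1 of those 4 libraries). Lockd, a long noncoding RNA, had 159 and 170 counts at 0 h, 406 and 303 at 6 h and 1459 and 1586 at 12 h, and differed by 1.31 ± 0.45 at 6 h (adjusted p = 0.0186), a call lost without E2F1 6 h replicate 1 or EV 6 h replicate 1 (adjusted p = 0.118 and 0.167). Olfr1318 alone stood lower at 6 h than at 0 h by more than 0.5, with 80 and 127, then 51 and 79, and 332 and 278 counts at 12 h.

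In the first hours of serum most of these genes stood below their starved level. After 2 h of serum 117 of the 138 stood below EV 0 h, 52 of them by at least 1, after 6 h 125 and 44, and after 12 h 69 and 8. The selection removed genes 0.5 or more above EV 0 h, which itself favours levels below 0: of the 6619 genes in the table under the serum limit at all 3 times, 72.6%, 72.7% and 71.9% lay below, against 84.8%, 90.6% and 50% of the 138. At least 1 below EV 0 h lay 22.5%, 18.7% and 14.4% of the 6619, against 37.7%, 31.9% and 5.8% of the 138. The counts are a description, since the selection used those libraries. In the serum 6 h libraries Cenpp, a centromere gene, had 10 and 16 counts against 87 and 155 in starved EV cells, and Mxi1 309 and 324 against 1943 and 1853. Cep72 had 36 and 28 counts after 2 h of serum against 187 and 290. With doxycycline alone the EV line stood within 1 of its 0 h level at 2 h and 6 h in every one of the 138 genes, and at 12 h 34 stood at least 1 below it, 31 of these among the 39 mitotic genes. The median difference of 12 h of EV doxycycline from 0 h was -0.14 over the 138 genes and 0.002 over all genes.

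The genes were set against pathway lists drawn up from general knowledge. Members made up 138 of the 11208 genes in the table. Of 50 E2F target genes of S phase in the table none was a member. Yet 50 of them were higher in the E2F1 line at 6 h and 49 had a larger 2 h to 6 h change, against 33.0% and 23.0% of all genes. The serum limit of the selection bears on this. The 12 h rise was met by 33 of the 50. Over the 50 the median level after 12 h of serum was 2.22 above EV 0 h, past the limit of 0.5. Of 30 G2 and mitosis genes 15 were members, and 26 of the 30 were higher at 6 h, 12 of them members, against 33.0% of all genes. A larger 2 h to 6 h change was called in 3 of the 30 and 0 of the 15, fewer than the 23.0% of all genes. The G2 and mitosis members were Ccnb1, Ccnb2, Plk1, Aurka, Bub1b, Cenpa, Cenpe, Cenpf, Kif20a, Kif23, Kif2c, Nusap1, Ube2c, Hmmr and Nek2. The lists of E2F1-linked apoptosis genes, p53 targets, immediate early genes and homologous recombination genes, with 23, 26, 34 and 54 genes in the table, held no member. At the share of 138 in 11208, lists of such sizes, the 50 S phase genes among them, would hold few or none. The absence is therefore no result about these lists. The authors' deposited list for 12 h against 0 h in the E2F1 line holds 510 genes with a log2 change of 2 or more in either direction, 435 of them higher. It held 45 of the 138, all higher. The authors' lists for serum against 0 h hold 1268 genes at 2 h, 795 at 6 h and 726 at 12 h. They held 12 of the 138 as lower at 2 h, 5 as lower at 6 h and 0 at 12 h. These lists compare groups that the selection also used, so the directions of members were fixed beforehand and test nothing.

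Exons of another annotated gene overlapped those of 45 of the 138 genes, and because the use of strand in counting is not given in the sources used here, reads of such pairs cannot be told apart. In the annotation used for positions (GENCODE M21, GRCm38) 135 of the 138 were matched, and 129 were protein coding.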

How the data were processed

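RNA of NIH/3T3 cells was read in 22 libraries, grouped by line, stimulus and time from the labels. Polyadenylated RNA was read in paired ends of 150 bp, per the labels' protocols. The submitters' processing notes name FastQC, Trimmomatic, HISAT2, featureCounts, DESeq2 and the mm10 build, with no versions or roles. The main table holds normalized counts rounded to whole numbers, as the authors deposited them, and was treated as a score and not as raw counts. Further tables hold the authors' log2 fold changes and adjusted p-values as deposited, and were used only to count members. How the counts were scaled is not given in the sources used here, so no depth correction was added and count models were not used.

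Values were analysed as log2(value + 1). Every gene had a value of at least 10 in 2 libraries, so that filter removed none of the 11208. A model with a mean for each of 11 groups was fitted to all libraries with limma 3.58.1 in R 4.3.3 (11 residual degrees of freedom, empirical Bayes with a trend), tested two-sided, with Benjamini-Hochberg adjustment over all genes and a threshold of 0.05. The code was tested on simulated data. The tests use only groups that the selection did not use. The members, the gene lists and the tests were chosen with earlier results of these data known. Named genes were those with the 12 largest 12 h rises, the 10 largest line differences at 6 h, the 5 highest 12 h means, members of the lists, genes called lower in a test, genes at the limits of the selection and the 5 largest line differences at 2 h, and others were named after their values were seen. Alternatives were a pseudocount of 8, no filter, a mean of at least 500, quantile normalization, equal totals, a replicate block with and without the lines kept apart, a fit to only the groups compared, leaving out the 2 h doxycycline libraries, a fold limit, no trend and leaving out each replicate. Python 3.11.15 was used for counts, motifs and figures.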

Additional observations from a re-analysis of the deposited data

Results flagged for a closer look

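The 2 h to 6 h change of the E2F1 line differed from that of the EV line for 17 of the named genes, by a test of the difference itself (limma, adjusted p under 0.05). The log2 difference of changes was 3.30 for Nfia, 2.94 for Lrrc75a, 2.61 for Tshz1, 2.49 for Hmgb3, 2.45 for Scrib, 2.32 for Psmb9, 2.23 for Mxd3 and 2.18 for Map3k1. It was 1.96 for Lzts3, 1.82 for Cbx2, 1.80 for Rb1, 1.66 for Arhgef39, 1.44 for Cep128, 1.41 for Mex3b, 1.37 for Cenpl, 1.29 for Stmn1 and 1.11 for Itga9. All of them rest on the 2 h libraries, whose line markers stood between those of the lines, and the part of this in the differences was not tested. Arhgef39 lost the call without E2F1 2 h replicate 2, E2F1 6 h replicate 1 or 2, EV 2 h replicate 1 or EV 6 h replicate 1, with adjusted p between 0.0525 and 0.128. Nusap1, with a difference of 0.81 that did not pass, passed without EV 6 h replicate 2 (1.36, adjusted p = 0.0316). Groups of 2 libraries are too small for a check of single outlying libraries.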

How the results depend on the processing

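Precision is limited by 2 libraries per group, by a scaling that the sources used here do not describe, and by exons that overlap between genes. Of 131 recomputed counts, member numbers and shares other than those that leave out a library, 119 were taken as unmoved. Counts and member numbers were so taken if equal to the main one or within 1.5 times of it. Shares of promoters with an E2F motif were so taken if inside the binomial confidence interval of the main share. The 126 genes called higher at 6 h ranged from 94 (of the 101 with a mean of at least 500) to 130 over the settings, the 87 with a larger 2 h to 6 h change from 67 to 96 and the 90 that rose in the E2F1 line from 70 to 110. The 130 came with a replicate block within each line. In that setting line differences, also those at 2 h, are between fitted replicate 1 levels and not group means. Quantile normalization called 1 gene lower at 6 h. At 2 h the 9 higher genes became 1 with at least a 2-fold change, 43 with only the groups compared and 15 with a replicate block, and the 3 lower genes became 5 with only the groups compared, 5 with quantile normalization and 1 with a replicate block within each line. In the EV line from 2 h to 6 h the 1 higher gene became 0 with at least a 2-fold change and 2 with only the groups compared, and 1 gene was lower with only the groups compared, with a pseudocount of 8 and with quantile normalization. The causes were not tested.

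Leaving out 1 library at a time gave 99 to 129 genes higher at 6 h, 76 to 100 with a larger 2 h to 6 h change and 84 to 95 that rose in the E2F1 line. It gave 1 to 12 higher and 1 to 4 lower at 2 h, 1 to 2 higher and 0 to 2 lower from 2 h to 6 h in the EV line, and 0 to 21 lower from 6 h to 12 h there, the 21 without EV 6 h replicate 1. A group with a library left out has a single one, assumed to vary like the other groups. The difference of Map2 at 6 h, -0.10, ranged from -0.27 without EV 6 h replicate 2 to 0.064 without EV 6 h replicate 1, was 0.03 without E2F1 6 h replicate 2, and passed in no setting. Scml2, at 0.66 and adjusted p = 0.042 at 6 h, lost the call in 10 settings. The selection gave 134 genes with a pseudocount of 8, all among the 138, 144 with equal totals (120 shared), 130 with quantile normalization (110 shared) and 112 to 172 without 1 library, the 112 without EV 0 h replicate 2 and the 172 without EV 0 h replicate 1. The share of promoters with an E2F motif, 6.31% against 5.10% of genes in the table, was 2.7% against 1.93% with 2 forms of the motif and 3.6% against 2.76% in the shorter window.

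Over 55 pairs of groups the correlation between the deviations of libraries with the same replicate number ran from -0.277 to 0.455, with a median of 0.0314, and 18 were above 0.1, so over all genes the numbers were not taken as pairs, although in 4 of the 7 EV groups replicate 2 was the higher one in at least 36 of the 39 mitotic genes. With the replicate number as a block 128 genes were called higher at 6 h and 87 had a larger 2 h to 6 h change, and with a replicate block within each line 130 and 87. The 130 rest on fitted replicate 1 levels of each line, so they do not check the 126 called from group means.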
